A study of Mus musculus with 8 samples.

Results

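A list of 10 markers of heart macrophages was followed in the border zone of infarcted and sham-operated mouse hearts: Lyve1, Timd4, Folr2, Mrc1 and Cd163, best known from macrophages that reside in the tissue, Ccr2 and Cx3cr1, the chemokine receptors of monocytes and their descendants, and Adgre1, Csf1r and Cd68, which mark macrophages in general. The list was taken as given, and 9 of the 10 genes had a locus of their own among the 35299 loci of the deposited assembly. Cd68 was left out because the assembly joins it with Eif4a1, Mpdu1, Senp3 and Tnfsfm13 in 1 locus (mm9 chromosome 11, 69470206 to 69510006), whose reads cannot be assigned to it. Poly(A)-selected RNA was sequenced from 8 hearts of C57BL/6J mice aged 12 weeks, of which 4 had a sham operation (Sham) and 4 an infarct (MI), in which muscle starved of blood dies and is replaced by scar. Both groups gave tissue from the border zone, the rim next to the infarct or its counterpart, 2 weeks after surgery. No transgene or drug is named for either group.

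Macrophages of the adult heart come from lineages that the chemokine receptor Ccr2 helps to tell apart. Resident cells, seeded largely before birth, maintain themselves by division under the growth factor receptor Csf1r and carry scavenging and uptake receptors such as Timd4, Lyve1 and Folr2. Monocytes that enter from the blood after injury carry Ccr2 and can take on macrophage markers as they mature. In RNA from whole tissue, fewer cells of a type and less RNA per cell cannot be told apart.

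The libraries held 108 to 161 M reads in loci in Sham and 165 to 190.2 M in MI, so every MI library was deeper than every Sham library. Values are the authors' normalised reads, on a scale where 1 read was worth 0.663 to 1.58. All Sham titles are marked as a reanalysis and no MI title is, so that this difference and the infarct cannot be told apart. Groups follow the titles and the treatment field; the source field says Sham for every sample, and the descriptions of MI replicates 1 to 3 and Sham replicate 4 name the opposite operation. The library of MI replicate 2 stood apart from the other MI libraries on the leading principal component (34.8 against 62.4 to 63.2; Sham -65.2 to -42.6). Heart muscle markers were abundant throughout, with the 4 cardiomyocyte genes that had a locus of their own summing to 2299260 to 2601250 in Sham and 1492160 to 1774790 in MI. Of these, Myl2, a myosin light chain (log2 difference -0.68 ± 0.11), Ryr2, the calcium release channel (-0.67 ± 0.20), and Myl3 (-0.53 ± 0.11) fell in limma, and Actn2 did not pass. The Ryr2 call was lost under both total scalings and in 5 of the 8 fits without 1 library. The part of heart muscle RNA in the marker values was not tested.

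Of the 9 genes 5 rose in MI (Ccr2, Cx3cr1, Adgre1, Csf1r and Mrc1), 1 fell (Timd4), and Cd163, Folr2 and Lyve1 did not pass (limma-trend over 19186 tested loci, Benjamini-Hochberg adjusted p under 0.05). All 9 had a mean of at least 10 normalised reads and were tested. Over all tested loci 20.8% rose and 20.1% fell, and the median log2 difference was 0.37 over the 9 genes and -0.02 over all tested loci. Groups did not overlap for 4 of the rises and for the fall, while 19.7% of tested loci had every MI value above every Sham value and 20% every MI value below. Ccr2, Cx3cr1 and Adgre1 passed with a log2 difference of at least 1, as did 9.04% of tested loci, counting rises only.

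**Figure D1:**
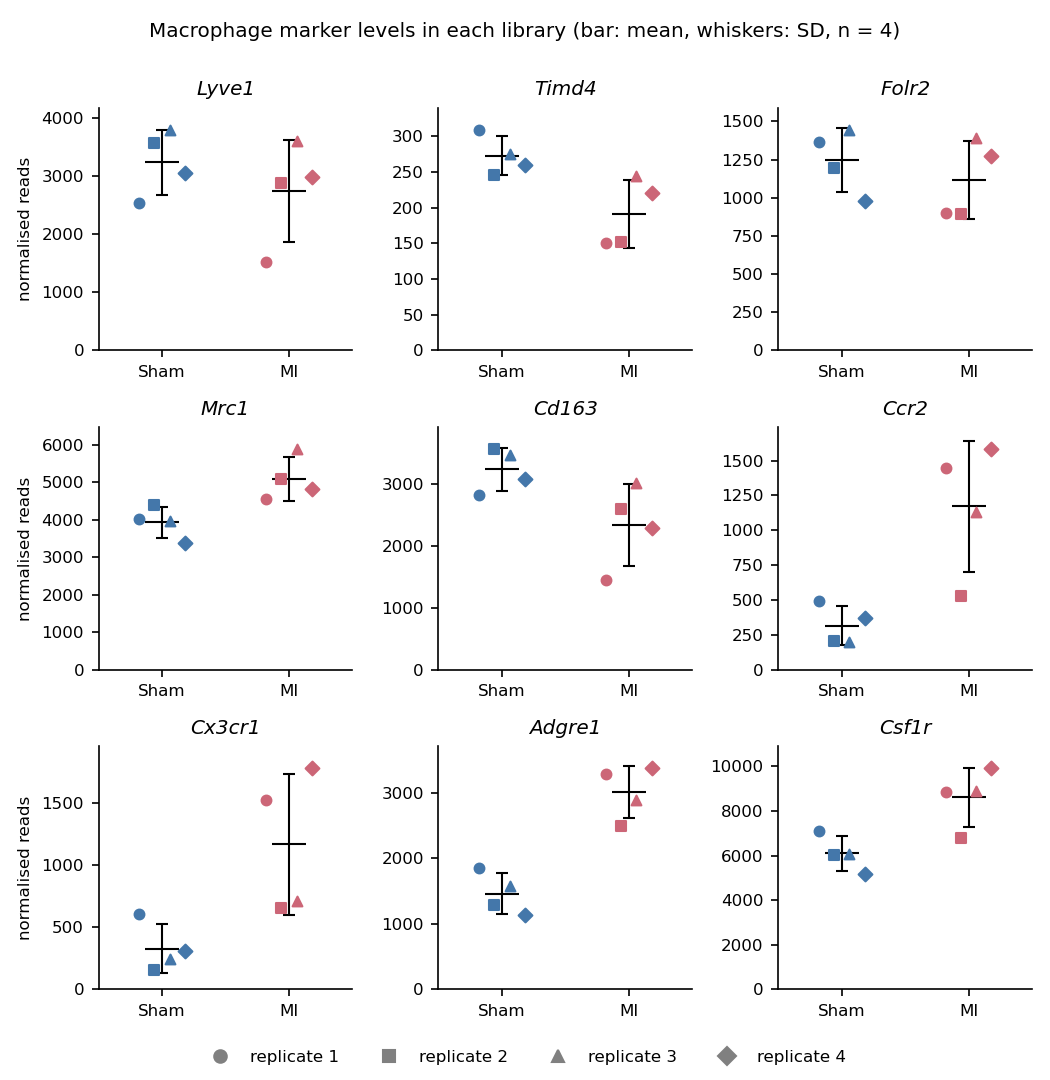
Normalised reads (y axis, from 0) of the 9 markers in each library, by group (x axis), with a symbol per replicate and the mean and SD. MI points lie above all Sham points for Mrc1, Ccr2, Cx3cr1 and Adgre1, and below them for Timd4; relative to the mean, Ccr2 and Cx3cr1 spread most.

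Csf1r and Adgre1, the general markers, were higher in MI. Csf1r encodes the receptor for colony-stimulating factor 1 and interleukin-34, on which macrophages depend for survival (mm9 chromosome 18, 61265226 to 61290793, plus strand). Its level was 7106, 6043, 6084 and 5156 normalised reads in Sham replicates 1 to 4 and 8841, 6786, 8916 and 9908 in MI replicates 1 to 4. The groups overlapped only in MI replicate 2, which lay below Sham replicate 1. The Csf1r mean rose from 6097 ± 797 to 8613 ± 1311 (SD, n = 4 per group), with a log2 difference of 0.49 ± 0.13 (SE; adjusted p = 0.00947). Adgre1 encodes the adhesion receptor F4/80, the classic surface marker of mouse macrophages (chromosome 17, 57498114 to 57622950, plus strand). It stood at 1848, 1281, 1573 and 1142 in Sham and at 3285, 2502, 2887 and 3376 in MI, and the lowest MI library lay well above the highest Sham library. The rise was 2.06 times the Sham mean (log2 difference 1.06 ± 0.15, adjusted p = 3.73e-04).

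Ccr2 and Cx3cr1 showed the largest rises of the 9. Ccr2 encodes the receptor for Ccl2 and related chemokines that draws monocytes out of the marrow and into tissue (chromosome 9, 124016922 to 124028296, plus strand). Its level was 492, 206, 200.1 and 371 in Sham and 1443, 528, 1134 and 1582 in MI. MI replicate 2, the lowest of its group, was only just above Sham replicate 1, the highest of its own. The mean rose from 317 ± 141 to 1172 ± 468, 3.69 times (log2 difference 1.87 ± 0.37, adjusted p = 0.00252), and 96.9% of tested loci had a lower log2 difference. Cx3cr1 encodes the receptor for fractalkine, carried by patrolling monocytes and many tissue macrophages (chromosome 9, 119957811 to 119977400, minus strand). It stood at 603, 155, 244 and 307 in Sham and at 1525, 652, 707 and 1777 in MI, so that MI replicates 2 and 3 were close to Sham replicate 1 while MI replicates 1 and 4 were far above. The mean rose from 327 ± 194 to 1165 ± 571, 3.56 times (log2 difference 1.86 ± 0.42, adjusted p = 0.00538). Of the 3729 exon bases of Cx3cr1, 41 are shared with a locus on the opposite strand, and since strand use is not given in the sources used here, reads there could belong to either. NK cells and some T cells also carry Cx3cr1. The 8 T and NK markers with a locus of their own summed to 54.7 to 167 in Sham and 214 to 315 in MI. Of the 8, 5 rose, where 20.8% of all tested loci did, but none of the 8 had a mean of at least 50 normalised reads. Their part in the rise of Cx3cr1 was not tested.

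**Figure D2:**
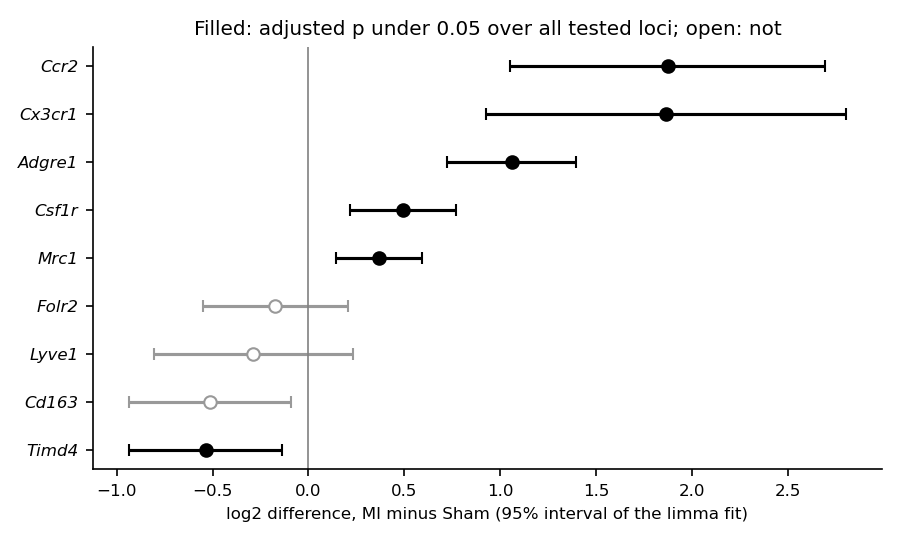
Log2 difference, MI minus Sham (x axis), for each marker (y axis), with the 95% interval of the limma fit; filled points passed the adjusted threshold over all tested loci. Ccr2 (1.87) and Cx3cr1 (1.86) lie farthest right and Timd4 (-0.54) and Cd163 (-0.51) farthest left.

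The 5 markers of resident macrophages did not move as one. Mrc1 rose, Timd4 fell, and the intervals of Cd163, Folr2 and Lyve1 lay mostly or wholly below zero without passing. Mrc1 encodes the mannose receptor CD206, an endocytic lectin of macrophages that some endothelial cells carry as well (chromosome 2, 14151041 to 14254264, plus strand). It stood at 4014, 4394, 3969 and 3391 in Sham and at 4545, 5079, 5888 and 4836 in MI, with a narrow gap between the groups. The mean rose from 3942 ± 413 to 5087 ± 577, a log2 difference of 0.37 ± 0.10 (adjusted p = 0.014). The blood endothelial list gave no call in limma among 6 tested genes (1 at an unadjusted p under 0.05; none in edgeR or DESeq2; 4 higher with total scaling), with sums of 111588 to 150590 in Sham and 121513 to 145107 in MI. Among them Pecam1, an adhesion molecule of endothelium, had the smallest p (0.19 ± 0.09, adjusted p = 0.0945) and passed in 5 of 18 alternatives. The part of endothelium in the Mrc1 values was not tested.

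Timd4 encodes TIM-4, a receptor for phosphatidylserine by which resident macrophages bind dying cells (chromosome 11, 46624301 to 46657835, plus strand). Its level was 309, 246, 275 and 260.2 in Sham and 149.8, 152, 244 and 219.9 in MI. MI replicates 1 and 2 were clearly lower, while MI replicate 3 lay just under the lowest Sham library. The mean fell from 273 ± 27.1 to 191 ± 47.6, 0.702 times the Sham mean (log2 difference -0.54 ± 0.18, adjusted p = 0.036). It rests on 165 to 259 reads per Sham library and 185 to 296 per MI library, for which counting alone gives a spread of 6.83% and 6.55% beside observed coefficients of variation of 9.95% and 24.9%. The call was lost in 8 of 18 alternatives, over which the adjusted p ran from 0.0165 to 0.308: with scaling to the library total (-0.23) or to the total outside the mitochondrial genome (-0.35), with edgeR on recovered reads (-0.49), and without any 1 of Sham replicates 1, 3 and 4 and MI replicates 1 and 2 (-0.56 to -0.43).

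Cd163 encodes the scavenger receptor for complexes of haemoglobin and haptoglobin (chromosome 6, 124254674 to 124280545, plus strand). It stood at 2823, 3567, 3479 and 3081 in Sham and at 1452, 2601, 3022 and 2288 in MI, where MI replicate 3 alone lay above the lowest Sham library. The means were 3237 ± 348 and 2340.4 ± 664, and the log2 difference of -0.51 ± 0.19 missed the threshold (adjusted p = 0.0536, between 0.00881 and 0.345 over the alternatives). It passed in 5 of 18 alternatives, among them the fit with the title's replicate number as a block (adjusted p = 0.00881), and came to -0.30 without MI replicate 1.

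Lyve1 encodes a hyaluronan receptor shared by resident macrophages and lymphatic endothelium (chromosome 7, 117992660 to 118006467, minus strand). Its level was 2540.2, 3567, 3804 and 3062 in Sham and 1519.8, 2883, 3610.4 and 2993 in MI. Only MI replicate 1 lay below all Sham libraries. The log2 difference was -0.29 ± 0.23 (95% interval -0.81 to 0.23, adjusted p = 0.354), and -0.03 without MI replicate 1. Folr2 encodes folate receptor beta, which binds folate at the surface of resident macrophages (chromosome 7, 108988502 to 109005708, minus strand). It stood at 1368, 1193, 1446 and 978 in Sham and at 902, 896, 1389 and 1276 in MI, and the groups were interleaved. Its log2 difference was -0.17 ± 0.17 (95% interval -0.55 to 0.21, adjusted p = 0.454). With scaling to the library total the values of Lyve1 and Folr2 turned positive, at 0.02 and 0.14, also without passing. That scaling moved the median log2 difference of all tested loci to 0.29.

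Lymphatic markers, which bear on Lyve1, gave 2 rises and 1 fall among the 5 tested. Over all tested loci 20.8% rose and 20.1% fell, so the 1 fall is near the share of all loci. Of 5 tested, Pdpn, podoplanin, rose (log2 difference 1.86 ± 0.16, adjusted p = 1.64e-05), as did Flt4, the receptor for lymphatic growth factors (0.31 ± 0.09, adjusted p = 0.0192). Prox1, the lymphatic master transcription factor, which heart muscle cells also express, fell (-0.62 ± 0.12, adjusted p = 0.00259; it did not pass under total scaling, at -0.32). Reln (-0.27 ± 0.18) and Mmrn1 (0.14 ± 0.18) did not pass. The 5 genes summed to 16892 to 18771 in Sham and 12921 to 17280.3 in MI. Prox1 was the largest part of these sums (11857 ± 708 in Sham, 7800 ± 1553 in MI), so they are no level of lymphatic endothelium alone. The part of lymphatic endothelium in the Lyve1 values was not tested.

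The stretches before the starts of Timd4 and Mrc1 are shown because these resident markers moved in opposite directions. RefSeq windows were matched for 7 of the 10 genes, on build GRCm38.p6 and not the mm9 of the other coordinates. The 250 bases before each start are given 5′ to 3′ on the gene's strand, with capitals for the motif words found.
Timd4 (chr11:46810549-46810798, plus strand): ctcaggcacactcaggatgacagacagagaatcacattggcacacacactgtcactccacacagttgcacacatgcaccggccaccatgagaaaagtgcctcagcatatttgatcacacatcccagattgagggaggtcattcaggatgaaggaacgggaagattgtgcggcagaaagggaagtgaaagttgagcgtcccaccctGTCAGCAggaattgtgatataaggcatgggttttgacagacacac
Mrc1 (chr2:14229164-14229413, plus strand): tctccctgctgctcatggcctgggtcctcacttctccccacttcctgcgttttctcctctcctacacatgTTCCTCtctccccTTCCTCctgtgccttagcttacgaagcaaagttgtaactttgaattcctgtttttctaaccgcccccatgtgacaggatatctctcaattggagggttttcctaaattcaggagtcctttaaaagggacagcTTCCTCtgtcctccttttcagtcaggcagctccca
The words searched, on both strands, were GAGGAA and the longer GAGGAAGT that contains it (the ETS family, with PU.1 of macrophages), TTGCNNAA with TTGCGCAA inside it (C/EBP), TGCTGAC (MAF) and TATAAA. Timd4 held 1 MAF word, starting 45 bases before the start, as do 3.79% of 32536 distinct windows, and Mrc1 held 3 copies of the shorter ETS word at 180, 167 and 35 bases before it, where 23.4% of windows have at least 1. No listed word was found in the windows of Folr2, Cd163, Ccr2 and Cx3cr1. The window of Cd68 held the shorter ETS word at 225 bases before the start. It also held the shorter C/EBP word at 43 bases, which 9.57% of windows have. These matches describe letters and were not tested against expression.

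Length-corrected levels changed their order between the groups. Per kilobase of exon in the assembly, Sham hearts had most of Csf1r (1115 ± 146 normalised reads per kb), then Folr2 (944 ± 158), Lyve1 (797 ± 138), Cd163 (721 ± 77.5) and Mrc1 (665 ± 69.7). Among these 5, the ranges of neighbours overlapped. Adgre1 followed at 451 ± 97.1, below every Sham library of Mrc1, and Timd4 (125 ± 12.5), Cx3cr1 (87.8 ± 52.0) and Ccr2 (84.1 ± 37.3) were lowest, with overlapping ranges. In MI the order was Csf1r (1575 ± 239.8), Adgre1 (930.4 ± 124), Mrc1 (858 ± 97.3), Folr2 (845 ± 193), Lyve1 (676 ± 217), Cd163 (522 ± 148), Cx3cr1 (312 ± 153), Ccr2 (311 ± 124) and Timd4 (88.0 ± 21.9). Csf1r stood clear above Adgre1 and Ccr2 clear above Timd4, and the other neighbours overlapped. Adgre1 thus moved from rank 6 to rank 2, and Timd4 from rank 7 to rank 9.

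**Figure D3:**
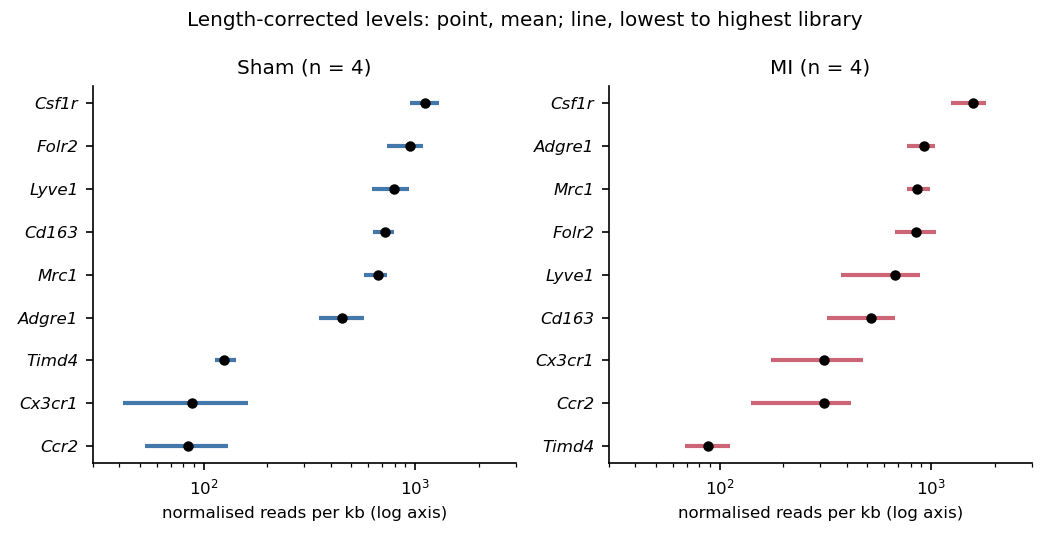
Normalised reads per kilobase of exon (x axis, log scale) of each marker in Sham and MI, with the mean as a point and a line from the lowest to the highest of 4 libraries. Adgre1 is at rank 6 in Sham and rank 2 in MI, and Timd4 is lowest in MI.

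Each marker was next set against Csf1r within its own library, which removes the scaling between libraries. Of 8 such ratios, 3 were lower and 2 higher in MI (2-sided exact permutation test, p = 0.0286 each, the smallest that 4 against 4 allows; adjusted p = 0.0457 over the 8). Since Csf1r itself rose, the median difference of all other tested loci against it was -0.51, and 34% of them had every MI library lower and 7.51% every MI library higher. The 3 lower ratios of 8 are thus near the share of all loci and are no result about these markers. The log2 ratio of Timd4 to Csf1r was -4.52, -4.61, -4.46 and -4.30 in Sham and -5.87, -5.47, -5.19 and -5.49 in MI, lower by a log2 difference of -1.03. That of Cd163 was -1.33, -0.76, -0.81 and -0.74 in Sham and -2.61, -1.38, -1.56 and -2.11 in MI (difference -1.01). That of Folr2 was -2.38, -2.34, -2.07 and -2.40 in Sham and -3.29, -2.92, -2.68 and -2.96 in MI (difference -0.67). In these 3 ratios all MI libraries lay below all Sham libraries, although Folr2 and Cd163 had not passed in the test of their own levels. With 1 library left out, each of the 5 ratio calls was lost in 6 of 8 cases (adjusted p up to 0.0914) and kept without MI replicate 2 or 3, with the difference always in the same direction.

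The ratios of Ccr2 (difference 1.38) and Adgre1 (0.56) lay above Sham in all 4 MI libraries. Ccr2 to Csf1r was -3.85, -4.87, -4.92 and -3.79 in Sham and -2.61, -3.68, -2.97 and -2.65 in MI, where MI replicate 2 came close to the higher Sham libraries. Cx3cr1 to Csf1r differed by 1.37, nearly as much, but Sham replicate 1 (-3.56) overlapped MI replicate 3 (-3.66), and the test did not pass (exact p = 0.0571, adjusted p = 0.0762). Lyve1 to Csf1r differed by -0.78 with overlap (exact p = 0.0857, adjusted p = 0.098), since Sham replicate 1 (-1.48) was lower than MI replicates 2 (-1.23) and 3 (-1.30). Mrc1 to Csf1r differed by -0.13 (exact p = 0.486, adjusted p = 0.486), with overlap.

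The choice of reference gene mattered. Against Adgre1, which rose more than Csf1r, all 5 resident markers were lower in every MI library, but so were 68.6% of all loci (3.16% were higher in every MI library), with a median difference of -1.08. The markers' own differences lay on both sides of that median (-1.59 for Timd4, -1.57 for Cd163, -1.35 for Lyve1, -1.23 for Folr2 and -0.69 for Mrc1; exact p = 0.0286, adjusted p = 0.0381 each). Ccr2 and Cx3cr1 against Adgre1 overlapped between the groups (differences 0.81 each; adjusted p = 0.131 and 0.171). Against Ptprc, the general leukocyte antigen CD45, Timd4, Cd163, Lyve1 and Folr2 had no overlap (differences -1.72, -1.69, -1.47 and -1.35; exact p = 0.0286, adjusted p = 0.0643 over 9 ratios). Of all loci 73.1% lay wholly lower against Ptprc and 2.4% wholly higher, with a median difference of -1.20. Adgre1 against Ptprc changed sign to -0.12 (adjusted p = 0.543).

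**Figure D4:**
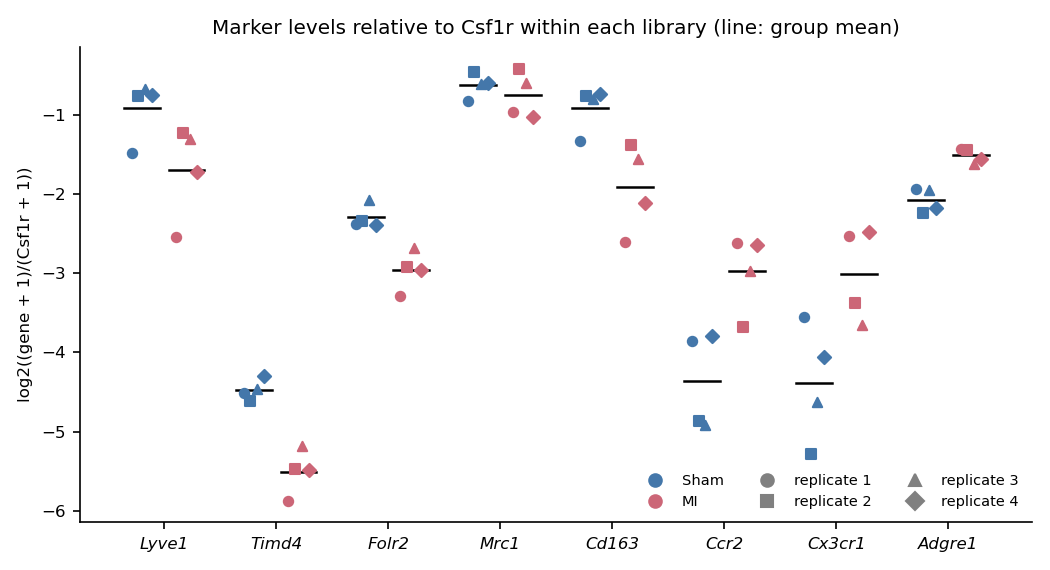
Log2 ratio of each marker to Csf1r (y axis, pseudocount 1) in each library, with a line at each group mean. MI points lie below all Sham points for Timd4, Folr2 and Cd163 and above them for Ccr2 and Adgre1.

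Single MI hearts differed in which markers were high. MI replicate 3 was the highest MI library for all 5 resident markers and MI replicate 4 for Ccr2, Cx3cr1, Adgre1 and Csf1r. MI replicate 2 was the lowest for those 4 and for Folr2, and MI replicate 1 the lowest for Lyve1, Timd4, Mrc1 and Cd163. From the lowest to the highest MI library, Lyve1 varied 2.38-fold, Cd163 2.08-fold, Ccr2 3.00-fold and Cx3cr1 2.72-fold, against 1.30-fold for Mrc1 and 1.35-fold for Adgre1. Among Sham hearts, replicate 1 was the highest for Ccr2, Cx3cr1, Adgre1, Csf1r and Timd4 and the lowest for Lyve1 and Cd163. These orders describe single hearts and were not tested.

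Genes outside the 9 markers were grouped by lists. The counts of each list stand beside all tested loci, of which 20.8% rose and 20.1% fell. Of 17 other resident-macrophage markers tested 4 rose, 1 fell and 12 did not pass, with a median log2 difference of 0.03, close to that of all loci. The 4 rises of 17 are near the share of all tested loci and are no result about these markers. Stab1 is also in the scavenger list and Maf in that of transcription factors. The rises were Ednrb, the endothelin B receptor (0.57 ± 0.17, adjusted p = 0.0216), Gas6, a bridging ligand for uptake of dying cells (0.47 ± 0.08, adjusted p = 7.91e-04), Stab1 (0.47 ± 0.09) and Siglec1 (0.37 ± 0.10). Retnla, a small secreted protein of alternatively activated macrophages, fell from 235 ± 23.0 to 135 ± 70.5 (-0.92 ± 0.29, adjusted p = 0.0276). Its call ended without Sham replicate 2 or 4 or MI replicate 1 or 2, with edgeR and with both total scalings, at -0.89 to -0.62, and that of Ednrb in 4 of the 8 fits without 1 library (adjusted p up to 0.0613). With total scaling 9 of the 17 rose and none fell, where 44.5% of all tested loci rose.

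Blood monocyte markers rose in 7 of 10 tested cases with none lower (median 1.54). Plac8 rose from 10.2 to 39.4 in Sham libraries to 177 to 261 in MI libraries (log2 difference 3.15 ± 0.36, adjusted p = 9.79e-05) and Chil3, a chitinase-like protein, from 8.97 ± 3.97 to 65.1 ± 44.9 (2.54 ± 0.56, adjusted p = 0.00445). The Sham means of Chil3 and of Treml4, also called as a rise (8.70 ± 4.37 in Sham, 31.4 ± 6.93 in MI), lay below 10. Both were tested only through their MI values. With a filter of 50, 5 of 7 monocyte markers rose (median 1.48). General macrophage and myeloid genes rose in 13 of 14 cases (median 1.14), led by Mpeg1, perforin-2 (2.03 ± 0.19, adjusted p = 3.46e-05), and Ctss, cathepsin S (1.87 ± 0.17, adjusted p = 2.80e-05). Mertk, an uptake receptor for dying cells, was the one that did not pass (0.16 ± 0.11, adjusted p = 0.287). Csf1r at 0.49 thus had a smaller log2 difference than each of the 13 that rose, the lowest of which was 0.73.

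The ligands and relatives of the markers were measured beside them. Of 9 listed chemokines and chemokine receptors 8 rose (median 1.41), among them the atypical receptors Ackr2 (1.55 ± 0.15) and Ackr4 (1.38 ± 0.27). The largest rises were those of Ccl8, a monocyte chemoattractant (1.94 ± 0.35, adjusted p = 0.00138), and Ccr1, a chemokine receptor (1.69 ± 0.18, adjusted p = 7.47e-05). Ccl2, the ligand of Ccr2, rose from 135 ± 15.9 to 239.7 ± 38.6 (0.82 ± 0.16, adjusted p = 0.00242) and Cx3cl1, fractalkine, the ligand of Cx3cr1, from 1346 ± 309.7 to 3216 ± 369 (1.28 ± 0.15, adjusted p = 1.19e-04). The ligands of Csf1r did not pass, with log2 differences of 0.20 ± 0.21 for Csf1 (adjusted p = 0.473) and 0.32 ± 0.13 for Il34 (adjusted p = 0.0639). In that list of growth factors and receptors 3 of 5 tested genes rose, the receptor chains Csf2rb2 (2.65 ± 0.21), Csf2rb (2.01 ± 0.16) and Csf2ra (0.61 ± 0.14). Csf2rb and Csf2rb2 are close copies, between which reads may be uncertain.

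Macrophage transcription factors rose in 7 of 10 cases (median 0.61), with Runx1 (2.09 ± 0.16, adjusted p = 1.02e-05) and Ikzf1 (1.16 ± 0.25, adjusted p = 0.00373) at the head. Other scavenger receptors and the mannose receptor family rose in 9 and fell in 2 of 12 cases (median 0.93). Olr1, a receptor for oxidised lipoprotein, rose from 5.71 ± 1.81 to 88.2 ± 26.1 (3.73 ± 0.32) and Marco from 5.07 ± 2.69 to 68.7 ± 55.6 (3.36 ± 0.59). Both, like Cd5l of the same list (3.99 ± 1.33 in Sham, 48.7 ± 23.7 in MI), had Sham means below 10. These 3 genes passed the filter only through their MI values. With a filter of 50 in its place, 6 of 9 genes of this list rose and 2 fell (median 0.47). The falls were Cd36, the fatty acid translocase abundant in heart muscle (-0.50 ± 0.09), and Ly75, a relative of Mrc1 (-0.73 ± 0.18; -0.43 with total scaling, which did not pass). Among relatives and partners of Timd4, Folr2 and Lyve1, 6 of 9 tested genes rose (median 1.72), led by Folr1, folate receptor alpha, from 2.30 ± 2.46 to 30.3 ± 8.55, and Hmmr, another hyaluronan receptor (2.75 ± 0.39). Folr1 likewise passed the filter only through its MI values, and with a filter of 50 the count was 5 of 8 (median 1.67).

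**Figure D5:**
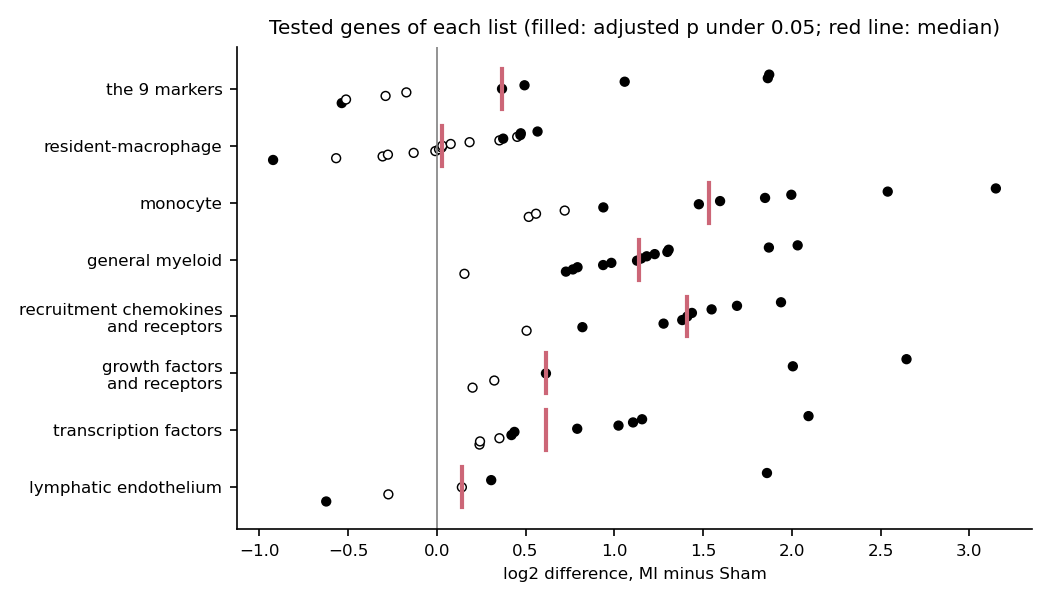
Log2 difference, MI minus Sham (x axis), of each tested gene in 8 lists (y axis), filled where it passed over all tested loci, with the list median as a line; the uppermost list is the markers themselves. The resident-macrophage list centres at 0.03, and the monocyte and general myeloid lists at 1.54 and 1.14.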

How the data were processed

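Trizol-extracted RNA underwent poly(A) selection and was sequenced as paired reads of 100 bases; these steps are from the labels' protocols. The build (mm9) and tools are per the submitters' processing notes: HTSeq 0.5.4p2, DESeq, Cufflinks 2.0.2 and TopHat2 2.0.5, their roles and settings not given in the sources used here. The authors deposited 1 normalised signal per locus and sample and an assembly with coordinates. Divided by the value of 1 read in its sample, 100% of values came out whole, which gave back the reads per locus.

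Loci were named by intron lengths shared with a GENCODE M21 gene on the same chromosome and strand, in the order of neighbouring matched introns. No coordinate was carried between builds. Of 22383 loci with introns 91.5% were named, and loci holding a second gene were left out of the lists.

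Groups were compared in limma 3.58.1 under R 4.3.3, its variance following mean level, on log2(value + 1), MI against Sham, over 19186 loci with a mean of at least 10, p-values being adjusted by Benjamini-Hochberg and called under 0.05. The pseudocount understates the change of low loci. The 8 ratios (9 were planned, with Cd68) were compared by exact permutation (Python 3.11.15, numpy 2.4.6, pandas 2.3.3). Alternatives used edgeR 4.0.16 (quasi-likelihood) and DESeq2 1.42.0 on recovered reads, other scalings, filters and pseudocounts, a replicate block, and each library left out. The code was tested on simulated data. The series states biological replicates. All pairs of libraries within a group differed beyond sampling noise (chi-square of at least 31.2 per degree of freedom).

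The markers and lists were chosen with earlier results of these data known. Genes named from each list were the 2 largest called rises and 2 largest called falls, or the smallest p where none was called. Ccl2, Cx3cl1, Csf1, Il34, Csf2ra, Mertk, Stab1, Siglec1, Cpa3, Tpsb2, Cma1, Mcpt4, Myl3 and Actn2 were named after their values were seen. So were Cd5l, Treml4, Reln, Mmrn1, Ackr2 and Ackr4. A listed gene is not reported here.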

Additional observations from a re-analysis of the deposited data

Results flagged for a closer look

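None of the 9 markers had a library standing apart from the other 3 of its group by Dixon's test at the 95% level. Of 98 groups of 4 examined, over the markers and the genes named from the lists, 6 did, and chance flags about 1 in 20. Ccl8 stood at 426 normalised reads in MI replicate 3 against 223 to 243 in the other MI libraries, and Hp, haptoglobin, at 6985 in the same library against 1143 to 1444. S100a8, a neutrophil protein, stood at 665 in MI replicate 2 against 149.9 to 206. In Sham replicate 4, Slc40a1 stood at 3694 against 2987 to 3089.9 and Ccr7 at 37.8 against 10.2 to 14.3. Pecam1 stood at 27875 in Sham replicate 1 against 22423 to 22705 in the other Sham libraries.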

How the results depend on the processing

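The 5 rises among the markers passed in all 18 alternatives of the main test. The count of markers that fell, 1 in the main test, was 0 with either total scaling and with edgeR, 2 with upper-quartile scaling, DESeq2 and the replicate block, and 0 to 2 without 1 library. Without MI replicate 2 the 1 fall was Cd163 and not Timd4. The count of loci higher in MI went from 3999 to 8572 with total scaling and that of loci lower in MI from 3855 to 1492; they were 6385 and 2141 with the total outside the mitochondrial genome, an alternative chosen after seeing the data. Of the same-numbered samples 3 of 4 pairs had deviations correlated above 0.1 (-0.000918 to 0.272), with 5 of 8 samples correlating best with their own number. These values do not settle whether the numbers are pairs. The main test did not take them as pairs, and the replicate block did. For the ratios to Csf1r, an exact test over same-numbered pairs (a replicate block) cannot go below p = 0.125 and gave adjusted p = 0.143 for Timd4 (-1.03), Folr2 (-0.67), Cd163 (-1.01), Ccr2 (1.38) and Adgre1 (0.56). Without 1 library the differences ran from -1.14 to -0.91 for Timd4, -0.76 to -0.56 for Folr2, -1.18 to -0.78 for Cd163, 1.19 to 1.61 for Ccr2 and 0.51 to 0.61 for Adgre1. Against Adgre1, Lyve1 (-1.35) and Mrc1 (-0.69) passed and Ccr2 (0.81) did not. Against Ptprc, Timd4 (-1.72), Folr2 (-1.35), Cd163 (-1.69) and Ccr2 (0.69) did not pass and Adgre1 reversed (-0.12). Ratios to Cd68 were not run, as it has no locus of its own. Of 40 genes named from the lists 31 kept their call in every alternative that tested them (9 fell below the filter of 50 and had 17) and none reversed. Counting alone gives a spread of at most 6.91% for each marker, below the observed spread in both groups.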

Other observations

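Of 11 tested genes of haem and iron handling, the pathway that Cd163 feeds, 6 rose and 2 fell. Over all tested loci 20.8% rose and 20.1% fell, so the 2 falls are near the share of all loci. Hp, haptoglobin, which forms the complex that Cd163 takes up, stood at 77.6, 37.6, 116 and 64.6 normalised reads in Sham and at 1444, 1433, 6985 and 1143 in MI (log2 difference 4.86 ± 0.53, limma adjusted p = 7.06e-05). Hpx, hemopexin, a carrier of free haem, rose from 10.5 ± 2.88 to 26.3 ± 3.98 (1.27 ± 0.28, adjusted p = 0.00485). Slc40a1, ferroportin, the iron exporter, fell from 3201 ± 331 to 1797 ± 219 (-0.84 ± 0.11, adjusted p = 1.77e-04), with every MI library below every Sham library. Fth1, the heavy chain of ferritin, which stores iron, fell from 125298 ± 12947 to 87655 ± 9956 (-0.52 ± 0.11, adjusted p = 0.00315). The calls of these 4 genes were kept in every alternative in which they were tested, 17 for Hpx and 18 for the others.

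Markers of other blood cells included many that rose, where 20.8% of all tested loci rose. Dendritic cell markers rose in 5 of 7 cases, led by Itgax (2.62 ± 0.33, adjusted p = 1.80e-04) and Ccr7 (2.05 ± 0.37, adjusted p = 0.00146). T and NK markers rose in 5 of 8 cases, led by Cd3d (2.37 ± 0.39) and Cd3g (1.73 ± 0.38). All 8 were low, with means under 50 normalised reads, so none was left with a filter of 50. The 3 B cell markers analysed rose, with Ms4a1 (1.22 ± 0.44) and Cd79a (1.16 ± 0.36) at the head, and the call of each of these ended in 6 of the 8 fits without 1 library. Neutrophil markers rose in 5 of 6 cases, led by S100a8 (2.57 ± 0.49) and Mmp8 (2.20 ± 0.49). Of 5 mast cell markers 1 rose, which is near the share of all loci and no result about these markers. It was Kit (0.75 ± 0.25, adjusted p = 0.0311, lost in 4 of those 8 fits), while Cpa3, Tpsb2, Cma1 and Mcpt4 did not pass. The 5 fibroblast markers all rose, with Col1a1 (3.22 ± 0.26) and Lum (1.81 ± 0.12) largest.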
